A study of Homo sapiens with 27 samples.

Results

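The insulin-like growth factor (IGF) binding proteins are described here as the 7 genes IGFBP1, IGFBP2, IGFBP3, IGFBP4, IGFBP5, IGFBP6 and IGFBP7, chosen by symbol from the 23228 genes of the deposited expression table. RNA sequencing was carried out on 3 human castration-resistant prostate cancer cell lines, the chemotherapy-resistant sublines ARCaPM-DR, 22Rv1-DR and DU145-DR. Each line carried shGATA2a or shGATA2b, which are hairpins that deplete the transcription factor GATA2 by RNA interference, or a random hairpin as Control. There were 3 libraries in each of the 9 groups and 27 libraries in all, and every library came from cells that expressed a hairpin. The comparison of the hairpins with Control asks which transcripts change when GATA2 is depleted in such cells. The labels do not say whether replicates were separate cultures or whether each hairpin line was 1 clone, so the p-values measure the spread between these libraries, which may be technical.

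IGF binding proteins are secreted proteins that hold IGF1 and IGF2 and thereby govern how much of either ligand reaches the type 1 IGF receptor. IGFBP3 and IGFBP5 also join the acid-labile subunit in a long-lived circulating complex, IGFBP6 prefers IGF2 over IGF1, and IGFBP7 binds IGFs only weakly. In the prostate, IGF signalling is a growth and survival input of epithelial and tumour cells, and proteases such as the kallikreins cleave IGFBP3.

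A short stretch of each member's coding sequence is shown, in which IGFBP6 departs from the others. The stretch shown encodes the conserved cysteine-rich signature of the N-terminal domain, which forms the IGF-binding fold. The 8 signature codons are in capitals, with 2 codons on either side, as read from the principal transcript of each gene in GENCODE v29 (GRCh38), 5′ to 3′ on the coding strand.
IGFBP1: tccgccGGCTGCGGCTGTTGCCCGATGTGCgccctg
IGFBP2: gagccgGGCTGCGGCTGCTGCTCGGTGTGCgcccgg
IGFBP3: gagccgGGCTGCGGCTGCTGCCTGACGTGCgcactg
IGFBP4: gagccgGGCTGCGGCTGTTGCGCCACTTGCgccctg
IGFBP5: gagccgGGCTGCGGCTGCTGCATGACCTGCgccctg
IGFBP6: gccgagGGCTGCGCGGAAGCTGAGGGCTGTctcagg
IGFBP7: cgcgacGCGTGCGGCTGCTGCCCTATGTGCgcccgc
Each stretch lies in exon 1 of its transcript. The capitals are at chr7:45888818-45888841 in IGFBP1, chr2:216633770-216633793 in IGFBP2, chr7:45920922-45920945 in IGFBP3, chr17:40443889-40443912 in IGFBP4, chr2:216694599-216694622 in IGFBP5, chr12:53097883-53097906 in IGFBP6 and chr4:57110163-57110186 in IGFBP7. IGFBP3, IGFBP5 and IGFBP7 are on the minus strand and the other 4 on the plus strand. Of the 8 codons, 4 encode cysteine in each gene except IGFBP6, in which 2 do. The search asked for those 4 cysteine codons, so their count was fixed by it in the other genes. IGFBP6 had no such match in frame and was placed by a looser pattern that asked for 2 cysteine codons. Over the 24 capital bases IGFBP3 and IGFBP5 shared 22, the most of any pair, while IGFBP6 shared 7 with IGFBP7 and 10 or 11 with each of the others. The search patterns fixed part of these bases, so the shared counts are partly set by the search.

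All values are normalised reads, which are read counts divided by 1 size factor per library as the authors deposited them. Library depth, recovered from the size of 1 read in each column, ran from 3.44 M to 19.4 M reads with a median of 12.87 M, and the shallowest library was ARCaPM-DR shGATA2a replicate 3. All 158 IGFBP values above 0 were whole numbers of reads within 0.005 reads, but 12 GATA2 values and 23 IGF2 values were not. GATA2, the targeted gene, had 26.4, 30.9 and 46.6 normalised reads with shGATA2a and 17.3, 20.1 and 21.7 with shGATA2b in ARCaPM-DR, against 173, 153 and 145 in Control. In 22Rv1-DR it had 966, 1348 and 840 with shGATA2a and 806, 1738 and 1101 with shGATA2b, against 3444, 4307 and 3052 in Control, and in DU145-DR 225, 334 and 288 with shGATA2a and 266, 385 and 346 with shGATA2b, against 1255, 1135 and 925 in Control. The knockdown libraries lay below all controls in each line. The fall passed the test in ARCaPM-DR (log2 fold change -2.56, SE 0.22), 22Rv1-DR (-1.71, SE 0.24) and DU145-DR (-1.85, SE 0.15), with limma adjusted p = 8.78e-05, 0.0256 and 5.54e-05 in that order. In 22Rv1-DR 7 of the 9 fits that left out 1 library lost the call (adjusted p up to 0.11). Of the 9 GATA2 values per line, 7 in 22Rv1-DR and 5 in DU145-DR were not whole reads. The prostate luminal markers KLK3, KLK2 and TMPRSS2 averaged under 10 normalised reads in ARCaPM-DR and DU145-DR and at least 10 in 22Rv1-DR.

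Each line had its own IGF binding protein profile before any knockdown. ARCaPM-DR controls were high in IGFBP7 and IGFBP6, 22Rv1-DR controls in IGFBP3 with some IGFBP2, and DU145-DR controls in IGFBP3 with some IGFBP4 and IGFBP6. All 7 genes differed between the 3 lines' control groups in the limma F test over 27 libraries, against 87.1% of all genes tested. Between single lines, 5 of 7 differed for ARCaPM-DR against DU145-DR (59.9% of all genes), 6 of 7 for ARCaPM-DR against 22Rv1-DR (70.3%) and 4 of 7 for 22Rv1-DR against DU145-DR (70.5%). These shares are near the background, so the family differed between lines about as often as other genes did, and the size of the differences is given next.

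IGFBP7, a matrix and vascular basement membrane protein, had 3279, 3827 and 3638 normalised reads in the ARCaPM-DR controls, against 1.72, 3.97 and 8.15 in 22Rv1-DR controls and 4.57, 2.85 and 0 in DU145-DR controls. The ARCaPM-DR level was higher by 9.49 (SE 0.67) on the log2 scale than in 22Rv1-DR and by 10.33 (SE 0.67) than in DU145-DR, and the low lines did not differ beyond their spread (adjusted p = 0.264). IGFBP6 had 2496, 2355 and 2511 normalised reads in ARCaPM-DR controls, 4.3, 0.992 and 14.7 in 22Rv1-DR and 224, 205 and 123 in DU145-DR. All 3 pairs of lines differed, since ARCaPM-DR exceeded DU145-DR by 3.78 (SE 0.51) and 22Rv1-DR lay under DU145-DR with a log2 difference of -5.03 (SE 0.51).

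IGFBP3, the main IGF carrier in serum, had 7.93, 5.26 and 5.76 normalised reads in ARCaPM-DR controls, 4471, 4668 and 6559 in 22Rv1-DR controls and 4162, 8611 and 8963 in DU145-DR controls. ARCaPM-DR therefore lay far under both other lines (log2 differences of -9.48 from 22Rv1-DR and -9.89 from DU145-DR, SE 0.34 each), whereas 22Rv1-DR and DU145-DR overlapped (adjusted p = 0.294). IGFBP5, which binds the extracellular matrix and bone mineral, was scarce everywhere. ARCaPM-DR controls held 0 reads, 22Rv1-DR controls 18.1, 10.9 and 11.4 normalised reads and DU145-DR controls 7.83, 8.55 and 4.32. Set against a floor of 3 reads per library, which covers counting error only, the ARCaPM-DR level was at least 4.74-fold lower than in 22Rv1-DR and at least 2.43-fold lower than in DU145-DR. The 22Rv1-DR and DU145-DR levels of IGFBP5 did not overlap but did not pass the test (log2 difference 0.88, SE 0.43, adjusted p = 0.0701). That difference passed without ARCaPM-DR shGATA2b replicate 3 (adjusted p = 0.0342) and in a fit of the control libraries alone (0.0287).

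IGFBP4, an inhibitory binding protein that the protease PAPPA cleaves, had 354, 707 and 299 normalised reads in ARCaPM-DR controls, 7.74, 16.9 and 23.6 in 22Rv1-DR controls and 309, 339 and 215 in DU145-DR controls. ARCaPM-DR and DU145-DR overlapped (adjusted p = 0.225), and both exceeded 22Rv1-DR. IGFBP2, which is abundant in many prostate tumours, had 375, 408 and 243 normalised reads in ARCaPM-DR controls and 374, 542 and 622 in 22Rv1-DR controls, which overlapped (adjusted p = 0.279). The DU145-DR controls held 1 IGFBP2 read in all. IGFBP1, known as an insulin-regulated product of the liver, was found in 22Rv1-DR controls at 30.1, 25.8 and 31.8 normalised reads, and ARCaPM-DR and DU145-DR controls held 0 reads. Its 22Rv1-DR level was at least 13.1-fold higher than in DU145-DR at the same floor.

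**Figure D1:**
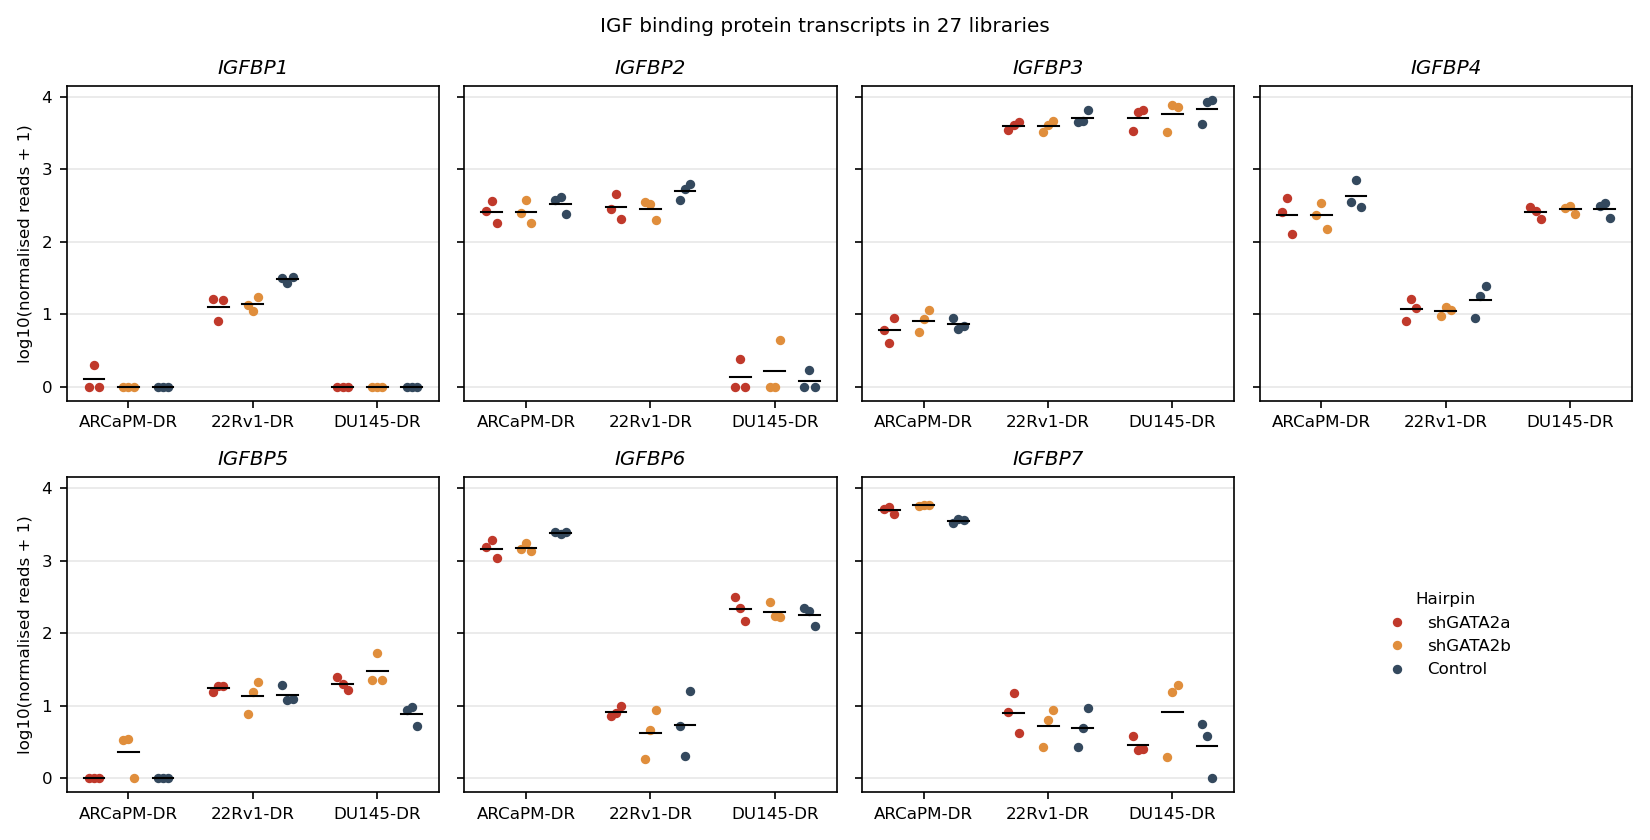
IGFBP1 to IGFBP7 in all 27 libraries, on a log10 scale of normalised reads plus 1, with points for shGATA2a (red), shGATA2b (orange) and Control (dark) libraries of each line and a bar at the mean of the plotted log values. IGFBP7 and IGFBP6 are high in ARCaPM-DR, IGFBP3 in 22Rv1-DR and DU145-DR, and the differences between lines exceed those between hairpins for most members.

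In ARCaPM-DR the knockdown moved the line's most abundant binding proteins in opposite directions: IGFBP7 rose and IGFBP6 fell. Of the 7 genes, 4 passed the filter on low values, and of these 1 rose and 1 fell, against 18.5% of all genes tested (9.86% higher and 8.62% lower). Their median log2 fold change was -0.54, beside 0 over all genes tested. IGFBP7 had 5272, 5494 and 4446 normalised reads with shGATA2a and 5785, 5950 and 5882 with shGATA2b, against 3279, 3827 and 3638 in Control. All 6 knockdown libraries lay above all 3 controls, as for 11% of all genes tested, and the shGATA2b libraries were the most alike. IGFBP7 rose by 0.61 on the log2 scale (SE 0.10, limma adjusted p = 0.00297), a 1.52-fold increase.

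IGFBP6 went the other way. It had 1547, 1920 and 1084 normalised reads with shGATA2a and 1434, 1775 and 1362 with shGATA2b, against 2496, 2355 and 2511 in Control. All 6 knockdown libraries lay below the controls, as for 10% of all genes tested, and the knockdown libraries were more spread than the controls. The log2 fold change was -0.71 (SE 0.17, limma adjusted p = 0.0165). The IGFBP6 call was lost without Control replicate 1 (adjusted p = 0.072) or Control replicate 3 (0.0649), and in a fit of all 27 libraries with 1 shared spread the calls of both IGFBP6 (0.288) and IGFBP7 (0.523) were lost. Without the shallow shGATA2a replicate 3, IGFBP6 (-0.60) and IGFBP7 (0.65) kept their directions with adjusted p of 0.01 and 0.00192.

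IGFBP4 had 259, 398 and 128 normalised reads with shGATA2a and 233, 346 and 150 with shGATA2b in ARCaPM-DR, against 354, 707 and 299 in Control. The groups overlapped, and the log2 fold change of -0.85 had an SE of 0.40 (adjusted p = 0.163). Each of the 6 knockdown libraries was at 0.428 to 0.731 of the control with the same replicate number. With that number as a block the limma adjusted p was 2.34e-05, in a fit that called 5885 of all 13079 genes tested. Same-numbered libraries of this line deviated together unevenly (lowest r 0.06, median 0.58), so pairing by number is uncertain here. IGFBP2 averaged 269 ± 85.0 normalised reads in the 6 knockdown libraries and 342 ± 87.4 in the 3 controls (SD), also with overlap (log2 fold change -0.37, SE 0.28, adjusted p = 0.388). Its knockdown libraries were at 0.655 to 0.915 of their same-numbered controls, and the same block gave a limma adjusted p of 0.011. The 95% interval of the IGFBP4 log2 fold change, -1.73 to 0.03, leaves room for a sizeable decrease. IGFBP1, IGFBP3 and IGFBP5 did not pass the filter. IGFBP3 lay between 2.99 and 10.4 normalised reads in the knockdown libraries and between 5.26 and 7.93 in Control, IGFBP5 held 4 reads over the shGATA2b libraries and 0 in all others, and IGFBP1 held 1 read in all.

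Among markers of other cell types in the ARCaPM-DR libraries, 1 of 2 fibroblast markers tested rose, 1 of 3 epithelial markers tested rose and 0 of 2 endothelial markers tested passed. Of all genes tested in this line 18.5% were called. The 7 fibroblast markers summed to between 5691 and 14936 normalised reads in the knockdown libraries and between 2368 and 4777 in Control, with 3 and 2 of 7 averaging at least 10. COL3A1 rose by 2.01 on the log2 scale (adjusted p = 0.00878). PDGFRB was at 0 reads in both groups and DCN, LUM and PDGFRA averaged under 10. The 7 endothelial markers summed to between 15.5 and 71.7 in the knockdown libraries and between 62.1 and 161 in Control, with PECAM1 and KDR at 0, and these ranges overlapped. The 3 epithelial markers summed to between 544 and 941 in the knockdown libraries and between 295 and 514 in Control, and EPCAM rose by 0.99 on the log2 scale (SE 0.24, adjusted p = 0.0204). The 11 replication-dependent histone genes, whose RNA largely lacks poly(A) tails, summed to between 863 and 1475 in knockdown libraries and between 485 and 562 in Control. Of the 10 tested 6 rose, beside 9.86% of all genes tested. In bulk RNA, fewer cells of a type and less RNA per cell cannot be told apart, and the part of these differences in the IGFBP7 and IGFBP6 changes was not tested.

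**Figure D2:**
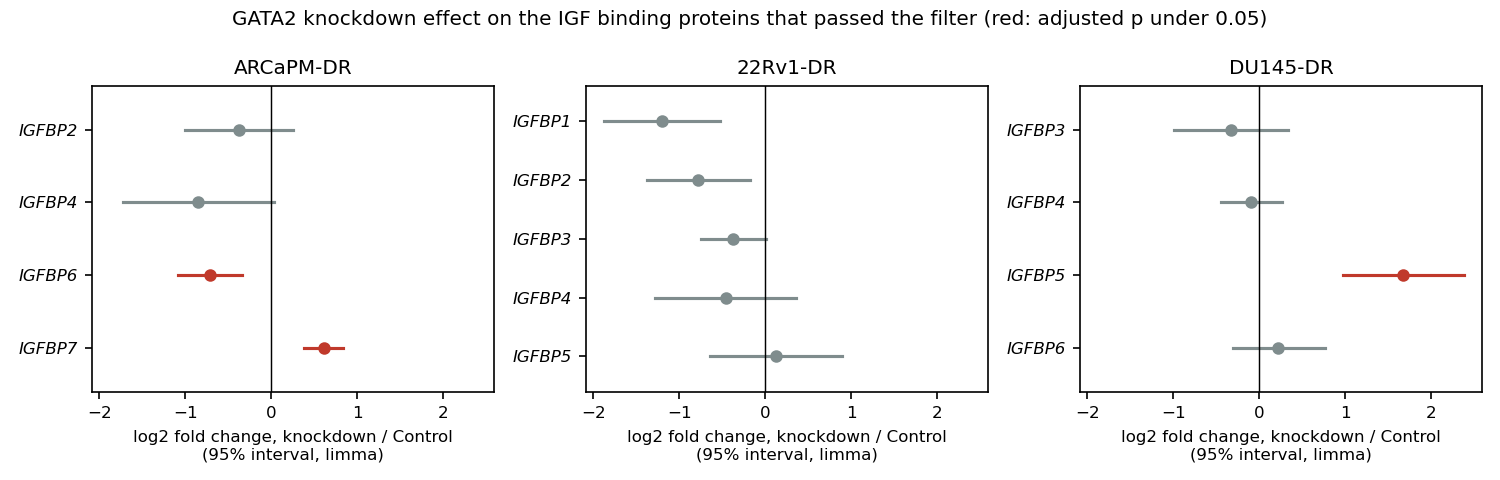
Log2 fold change of knockdown over Control for each member that passed the filter, by line, with the limma estimate as a point and its 95% interval as a bar. Red marks an adjusted p under 0.05, which held for IGFBP7 (0.61) and IGFBP6 (-0.71) in ARCaPM-DR and IGFBP5 (1.67) in DU145-DR.

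In 22Rv1-DR no member passed the test, although 4 of the 5 members tested had lower means with the hairpins. The count by limma was 0 of 5, and 0 of 5 also by edgeR, by DESeq2 and with the replicate number as a block, against 0.4% of all 13757 genes tested (0.124% higher and 0.276% lower). At an unadjusted p under 0.05 the count was 2 of 5, IGFBP1 and IGFBP2, beside 1379 of all 13757 genes tested. The members' median log2 fold change was -0.46, beside -0.02 over all genes tested. Control replicate 3 stood apart, at Pearson r of 0.9429 and 0.9514 of log2 values with replicates 1 and 2, against 0.9843 between those. It held the highest control value of IGFBP1, IGFBP2, IGFBP3 and IGFBP4. The count of members called stayed at 0 with any 1 library left out, this one included.

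IGFBP1 had 15.1, 6.95 and 14.5 normalised reads with shGATA2a and 12.5, 9.92 and 16.4 with shGATA2b in 22Rv1-DR, against 30.1, 25.8 and 31.8 in Control. All 6 knockdown libraries were below all 3 controls, which 4.04% of all genes tested also showed, on 84 reads in the knockdown libraries and 100 in the controls. The log2 fold change was -1.20 (SE 0.31, limma adjusted p = 0.22). The adjusted p ran from 0.0167 in a fit of all 27 libraries, the only alternative to pass, to 0.457 with 1 library left out. With the replicate number as a block the limma adjusted p was 0.0547 (SE 0.22).

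IGFBP2 had 282, 455 and 207 normalised reads with shGATA2a and 350, 332 and 199 with shGATA2b in 22Rv1-DR, against 374, 542 and 622 in Control. Of the 6 knockdown libraries 5 lay below all controls, and the log2 fold change was -0.78 (SE 0.27, adjusted p = 0.387). IGFBP3 had 3478, 4132 and 4520 normalised reads with shGATA2a and 3254, 4063 and 4659 with shGATA2b, against 4471, 4668 and 6559 in Control. Each of the 6 knockdown libraries had less IGFBP3 than the control of its own replicate number, at 0.689 to 0.885 of it, but the groups overlapped (log2 fold change -0.37, SE 0.17, adjusted p = 0.502). With the replicate number as a block the SE of IGFBP3 was 0.09 and its limma adjusted p 0.102, and that of IGFBP2 was 0.161. Neither passed, in a fit that called 166 of all 13757 genes tested. IGFBP4 (-0.46, SE 0.38) and IGFBP5 (0.12, SE 0.35) were at 23.6 normalised reads or fewer in every 22Rv1-DR library. The histone genes summed to between 1289 and 1644 normalised reads in the knockdown libraries of this line and between 725 and 1074 in Control, and their part in the members' lower means was not tested. IGFBP6 and IGFBP7 did not pass the filter, with highest values of 14.7 in a Control library and 13.9 in an shGATA2a library.

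In DU145-DR the abundant IGFBP3 was lower by an amount that only the paired fit called, and the scarce IGFBP5 was higher in all 6 knockdown libraries. Of the 4 members tested 1 rose and 0 fell, where 16.7% of all genes tested were called (8.72% higher and 7.98% lower). The 1 that rose was IGFBP5, which reached 10 normalised reads only in the 6 knockdown libraries and so passed the filter only through the group in which it was high, and the count supports nothing. The 4 members' median log2 fold change was 0.07, beside 0 over all genes. IGFBP5 had 23.6, 18.7 and 15.4 normalised reads with shGATA2a and 21.4, 51.9 and 21.6 with shGATA2b, against 7.83, 8.55 and 4.32 in Control. All 6 knockdown libraries were above all 3 controls (10% of all genes tested), on 158 reads in knockdown libraries and 29 in controls, and shGATA2b replicate 2 stood highest. The log2 fold change was 1.67 (SE 0.33, limma adjusted p = 0.00531), and without that library it was 1.47 (adjusted p = 0.00622). With no filter the adjusted p of IGFBP5 was 0.00795, and under a filter of 50 normalised reads it was not tested.

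IGFBP3 had 3343, 6248 and 6661 normalised reads with shGATA2a and 3323, 7830 and 7292 with shGATA2b in DU145-DR, against 4162, 8611 and 8963 in Control. Replicate 1 was lowest in every arm, so the groups overlapped, but each of the 6 knockdown libraries was at 0.726 to 0.909 of the control with the same number. Without a block the log2 fold change of -0.33 (SE 0.31) did not pass (adjusted p = 0.496). With the replicate number as a block, for which same-numbered libraries of this line deviated together, it passed at adjusted p = 0.000374. The number of members called was then 2 of 4, in a fit that called 5184 of all 13362 genes tested.

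IGFBP4 averaged 269 ± 42.4 normalised reads in the 6 DU145-DR knockdown libraries and 288 ± 65.1 in Control (log2 fold change -0.09, 95% interval -0.44 to 0.27). IGFBP6 averaged 216 ± 66.3 and 184 ± 53.8 in the same groups (log2 fold change 0.22, 95% interval -0.31 to 0.76, adjusted p = 0.569). With the replicate number as a block the limma adjusted p was 0.107 for IGFBP6 (SE 0.11) and 0.476 for IGFBP4 (SE 0.09). The 3 members that did not pass the filter were IGFBP1 at 0 reads in all 9 libraries, IGFBP2 at 4 reads or fewer per library, and IGFBP7. IGFBP7 had 14.5 and 18.1 normalised reads in shGATA2b replicates 2 and 3, while the other 7 DU145-DR libraries were at 4.57 or less. The 7 endothelial markers summed to between 27.8 and 54.2 normalised reads in the knockdown libraries of this line and between 12.1 and 17.1 in Control, with KDR and ROBO4 past the test and PECAM1, CDH5, VWF, TEK and ERG under 10 on average. Their part in the IGFBP5 result was not tested.

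**Figure D3:**
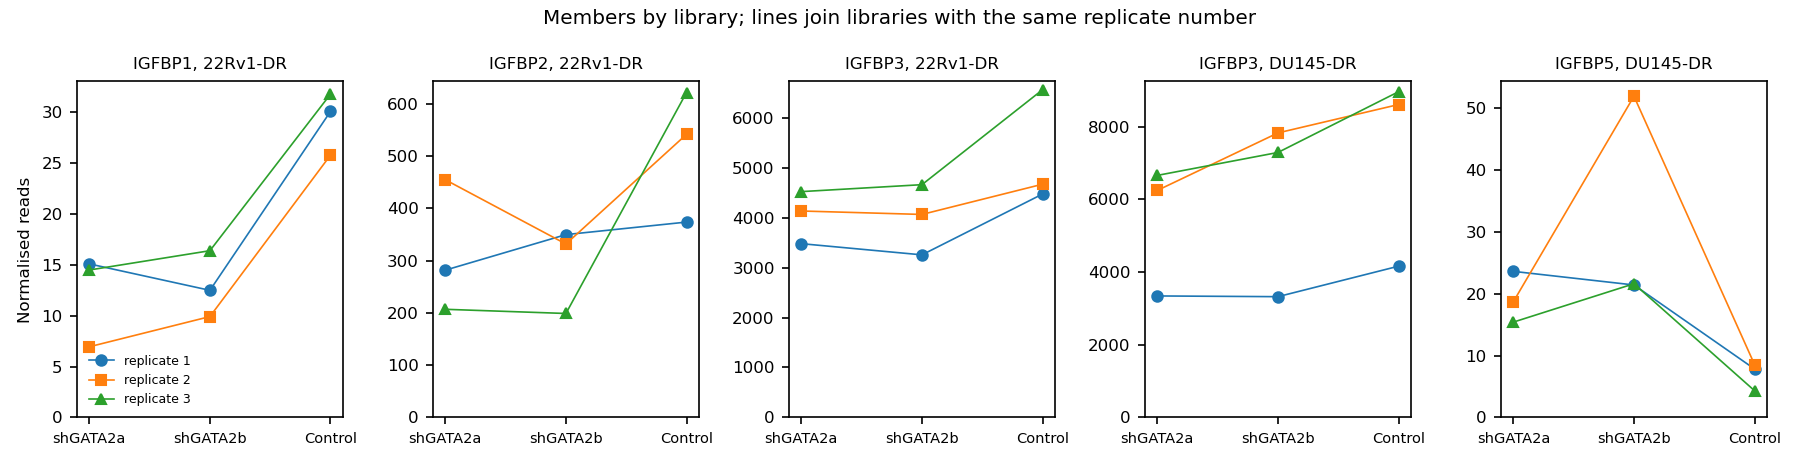
Normalised reads of IGFBP1, IGFBP2 and IGFBP3 in 22Rv1-DR and of IGFBP3 and IGFBP5 in DU145-DR, with each library as a point and lines joining libraries of the same replicate number across shGATA2a, shGATA2b and Control. Each IGFBP3 knockdown library lies below its same-numbered control in both lines, and each IGFBP5 knockdown library in DU145-DR lies above it.

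The 2 hairpins were not told apart by any member. In the direct contrast of shGATA2b with shGATA2a, limma called 0 of 4 members in ARCaPM-DR, 0 of 5 in 22Rv1-DR and 0 of 4 in DU145-DR, where 0.803%, 0% and 0% of all genes were called. At an unadjusted p under 0.05 the count was also 0 in each line, beside 1486 of 13079, 13 of 13757 and 787 of 13362 genes in that order. The adjusted counts by edgeR and by DESeq2 were 0 as well. The nearest was IGFBP7 in ARCaPM-DR, at 5872 ± 83.0 normalised reads with shGATA2b and 5071 ± 552 with shGATA2a (log2 difference 0.22, 95% interval -0.04 to 0.48, adjusted p = 0.55). In DU145-DR it was IGFBP5, at 31.6 ± 17.6 with shGATA2b and 19.2 ± 4.12 with shGATA2a (SD, n = 3 each), with a log2 difference of 0.58 and a 95% interval of -0.23 to 1.40.

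Whether the knockdown effect differed between lines was tested over all 27 libraries, and no member gave a difference that held under the alternatives. IGFBP1 passed the F test (adjusted p = 0.0354), 1 of 7 members, where 7% of all genes tested were called. ARCaPM-DR and DU145-DR held 1 and 0 IGFBP1 reads in all, so the gene passed the filter only through 22Rv1-DR and no decrease could be seen elsewhere. The pairwise differences called 3.39% of all genes for ARCaPM-DR minus 22Rv1-DR, 1.09% for 22Rv1-DR minus DU145-DR and 7.13% for ARCaPM-DR minus DU145-DR. The IGFBP1 effect was higher by 1.36 (SE 0.37, adjusted p = 0.0396) in ARCaPM-DR than in 22Rv1-DR, and the difference of 22Rv1-DR from DU145-DR was -1.20 (SE 0.37, adjusted p = 0.12). The F test did not pass with a pseudocount of 0.1 (adjusted p = 0.328), with edgeR (1) or without any 1 of 11 libraries (up to 0.0714). The difference of ARCaPM-DR from 22Rv1-DR was likewise lost with a pseudocount of 0.1 (0.266), with edgeR (1), in a fit of the 18 libraries of these lines alone (0.131) and without any 1 of 11 libraries (up to 0.0902).

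The other members' effects were not shown to differ between lines, with F test adjusted p of 0.138 for IGFBP5, 0.453 for IGFBP2, 0.554 for IGFBP6, 0.586 for IGFBP4, 0.857 for IGFBP3 and 0.94 for IGFBP7. With the replicate number as a block the IGFBP4 F test also did not pass (adjusted p = 0.0651), although its pairwise difference of ARCaPM-DR from DU145-DR did (-0.77, SE 0.24, adjusted p = 0.0317). For IGFBP6 and IGFBP7 the shared spread includes a line or lines with few reads, as their joint SE of 0.44 and 0.58 in ARCaPM-DR, against 0.17 and 0.10 in the fit of that line alone, shows. In a fit of the 18 libraries of ARCaPM-DR and DU145-DR, added after the data were seen, the IGFBP6 effect differed by -0.94 on the log2 scale, ARCaPM-DR minus DU145-DR (SE 0.34, adjusted p = 0.0831, 11.1% of genes called).

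Levels of different members can be compared only per length, so reads were divided by the length of the principal transcript, from 1169 bases for IGFBP6 to 6215 for IGFBP5. On that scale IGFBP7 made up 70.7% and IGFBP6 23.8% of the family's summed level in the ARCaPM-DR knockdown libraries, against 49.6% and 41.6% in Control. The share of IGFBP7 ran from 64.9% to 75.1% in the knockdown libraries and from 47.3% to 50.9% in Control and did not overlap. Of all single genes tested in this line, 11% lay above Control in all 6 knockdown libraries. The share restates the IGFBP7 and IGFBP6 values given above and is no separate evidence. The summed level itself was 5439 ± 660 normalised reads per kb with the hairpins and 5056 ± 227 in Control (SD, n = 6 and 3), which overlapped.

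In 22Rv1-DR IGFBP3 was 88.1% of the family level in the knockdown libraries and 85.5% in Control, and IGFBP2 was 10.7% and 13.2%. The sum was 2012 ± 229 normalised reads per kb with the hairpins and 2706 ± 594 in Control. The groups were narrowly apart, with a highest knockdown sum of 2228 and a lowest control sum of 2266. Of all single genes tested in this line, 4.04% lay below Control in all 6 knockdown libraries. Most of the sum is IGFBP3, whose own groups overlapped. In DU145-DR IGFBP3 was 87.5% in the knockdown libraries and 90.5% in Control, IGFBP6 was 7.51% and 5.19%, and IGFBP5 was 0.148% and 0.0359%. IGFBP5 rose most in fold but was the least abundant of the 4 members tested in that line.

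**Figure D4:**
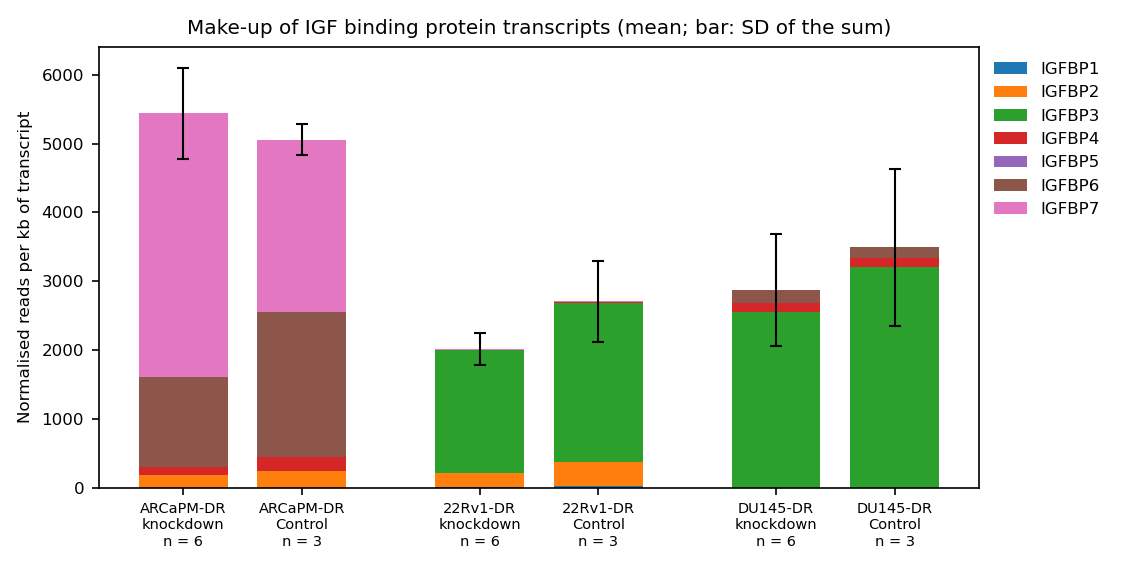
Stacked mean level of each member in normalised reads per kb of transcript, for knockdown (n = 6) and Control (n = 3) libraries of each line, with the SD of the summed level as a bar. IGFBP7 takes 70.7% of the ARCaPM-DR knockdown column and 49.6% of its Control column, while IGFBP3 dominates both other lines.

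Promoter sequence bears on the comparison because the hairpins target a factor that binds GATA motifs. RefSeq windows (GRCh38.p14) from 250 bases before to 50 bases after the transcript start were at hand for 5 members in 7 windows, and IGFBP1 and IGFBP7 had none in the table. The members that passed the test and have a window are shown, on the gene's own strand with any TATA word in capitals, IGFBP5 at chr2:216695500-216695799 (minus) and IGFBP6 at chr12:53097417-53097716 (plus).
IGFBP5: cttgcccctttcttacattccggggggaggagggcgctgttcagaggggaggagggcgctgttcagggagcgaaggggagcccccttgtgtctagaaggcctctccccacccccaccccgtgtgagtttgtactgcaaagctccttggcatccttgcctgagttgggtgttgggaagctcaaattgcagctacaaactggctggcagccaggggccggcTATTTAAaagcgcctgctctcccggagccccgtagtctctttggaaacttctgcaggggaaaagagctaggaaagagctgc
IGFBP6: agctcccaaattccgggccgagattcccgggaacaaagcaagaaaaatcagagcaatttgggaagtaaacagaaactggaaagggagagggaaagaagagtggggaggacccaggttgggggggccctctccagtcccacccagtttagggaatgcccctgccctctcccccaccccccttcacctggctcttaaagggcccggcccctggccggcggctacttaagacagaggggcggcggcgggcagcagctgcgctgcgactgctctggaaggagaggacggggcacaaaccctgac
The GATA word AGATAA was searched on both strands, together with the variant AGATAG, the variant TGATAA and the variant TGATAG. Of the 7 windows 0 held any of them, while 25% of all 35116 windows of the same length did. Such a search says only that these letters are not in these windows. The words for a TATA box were searched on the strand shown. IGFBP5 has TATTTAA 31 bases before its start, IGFBP3 has TATATA at 30 and IGFBP4 TATAAA at 29, whereas the IGFBP6 and IGFBP2 windows hold none of these 3 words. Of all windows, 11.9% hold one.

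The members lie in pairs on some chromosomes. IGFBP1 and IGFBP3 are neighbours on chromosome 7, 18.6 kb apart, and IGFBP2 and IGFBP5 are neighbours on chromosome 2, 7.7 kb apart. Neighbours were together in some lines and not in others. IGFBP1 and IGFBP3 averaged 29.2 and 5233 normalised reads in 22Rv1-DR controls, 0 and 6.32 in ARCaPM-DR controls, and 0 and 7245 in DU145-DR controls. IGFBP2 and IGFBP5 averaged 513 and 13.5 in 22Rv1-DR controls, 342 and 0 in ARCaPM-DR controls, and 0.238 and 6.9 in DU145-DR controls. IGFBP7 overlaps POLR2B on the opposite strand by 0.4 kb, and no source used here says whether counting used strand, so reads from the overlap cannot be assigned. POLR2B, a subunit of RNA polymerase II, averaged 2394 ± 329 normalised reads in the ARCaPM-DR knockdown libraries and 1924 ± 77 in Control (log2 fold change 0.30, SE 0.11, adjusted p = 0.0801). In DU145-DR it averaged 3004 ± 173 and 2717 ± 270 in the same groups, where IGFBP7 never exceeded 18.1.

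The wider IGF axis was described by a list of 39 ligands, receptors, adaptors, proteases and matrix partners. In ARCaPM-DR 4 of 27 tested rose and 2 fell, with a median log2 fold change of 0.03 beside 0 over all genes. In 22Rv1-DR 0 of 30 rose and 2 fell (median -0.07 beside -0.02). There 9 of the 30, 3 of them higher, had an unadjusted p under 0.05, beside 1379 of all 13757 genes tested. By edgeR and DESeq2 0 were called higher as well. In DU145-DR 4 of 26 rose and 2 fell (median 0.08 beside 0). The genes called were 22.2% of those tested in ARCaPM-DR, 6.67% in 22Rv1-DR and 23.1% in DU145-DR, beside the 18.5%, 0.4% and 16.7% of all genes given above.

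Among the ligands, IGF2 fell in all 3 lines, with log2 fold changes of -2.69 (SE 0.21) in ARCaPM-DR, -2.37 (SE 0.35) in 22Rv1-DR and -2.57 (SE 0.27) in DU145-DR, but 8, 8 and 7 of the 9 IGF2 values in those lines were not whole numbers of reads, which makes its levels uncertain. IGF1 ran from 37.8 to 229 normalised reads in the ARCaPM-DR knockdown libraries and from 5.26 to 21.2 in Control, and it rose there (log2 fold change 2.55, SE 0.59, adjusted p = 0.0161). Among the proteases, ADAM12, which cleaves IGFBP3 and IGFBP5, rose in DU145-DR to 1585 ± 176 normalised reads, against 1035 ± 142 in Control (0.62, SE 0.11, adjusted p = 0.00309). PLAU, the urokinase plasminogen activator, rose in DU145-DR (0.71, SE 0.14, adjusted p = 0.00564) and fell in ARCaPM-DR (-0.48, SE 0.13, adjusted p = 0.0294). ADAM9, another metalloprotease that cleaves IGFBP5, rose in DU145-DR (0.35, SE 0.10, adjusted p = 0.0324). In ARCaPM-DR limma did not call ADAM9, but edgeR and DESeq2 did. It ran there from 30926 to 51563 normalised reads with knockdown and from 26839 to 30580 in Control. Of all genes tested in that line, 11% also lay above Control in all 6 knockdown libraries. Among receptors and adaptors, ITGB1, the integrin chain through which IGFBP1 binds cells, and GRB10, an adaptor that restrains IGF receptor signalling, rose in ARCaPM-DR by 0.40 (SE 0.11) and 0.37 (SE 0.10), with adjusted p of 0.0355 and 0.0272. SDC1, a heparan sulfate proteoglycan, fell in DU145-DR with a log2 fold change of -1.08 (SE 0.20, adjusted p = 0.00468). The other gene that fell in 22Rv1-DR was IGF2BP3, an RNA-binding protein and no IGF carrier (-0.77, SE 0.14, adjusted p = 0.037), and it is named after its values were seen. Of its 9 values in that line 3 were not whole reads, so its level there is uncertain too. IGF2BP3 rose past the test in DU145-DR, and in ARCaPM-DR it was called lower with shGATA2b than with shGATA2a.

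A second list held 13 other proteins that carry the same N-terminal fold. Their median log2 fold change was 0.25 in ARCaPM-DR, -0.20 in 22Rv1-DR and 0.41 in DU145-DR, beside 0, -0.02 and 0 over all genes. In ARCaPM-DR 0 of 6 tested passed and in 22Rv1-DR 0 of 10, beside 18.5% and 0.4% of all genes. At an unadjusted p under 0.05 the counts were 1 and 2, beside 4358 of 13079 and 1379 of 13757 genes. By edgeR the adjusted counts were 0 in both lines, and by DESeq2 they were 1 and 0. In DU145-DR 2 of 9 rose and 1 fell, which is 33.3% of those tested, beside 16.7% of all genes. CRIM1, a transmembrane binder of bone morphogenetic proteins, rose to 18911 ± 1002 normalised reads, against 13468 ± 1249 in Control (log2 fold change 0.49, SE 0.09, adjusted p = 0.00345). KAZALD1 rose by 0.58 (SE 0.12, adjusted p = 0.00635). CYR61, a matrix-associated signalling protein, fell to 6284 ± 496, against 8460 ± 465 in Control (-0.43, SE 0.09, adjusted p = 0.00561).

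Genes with the most similar pattern were sought among the 12177 genes averaging 50 normalised reads or more, by Pearson r of log2 values over the 27 libraries, in which libraries of a line share their baseline. IGFBP7 was closest to CD74 (r = 0.992) and QPCT (0.989), IGFBP6 to AHNAK2 (0.982) and GPR124 (0.981), and IGFBP3 to FLNC and ELOVL5 (0.994 each). IGFBP4 was closest to FBXO2 and RELB (0.987 each) and IGFBP2 to PTPRN2 (0.989) and SMARCA4 (0.988). With each line's mean subtracted, the values became smaller for every member. IGFBP4 kept the highest, with TMEM132A (0.934) and INF2 (0.926), then IGFBP7 with CD74 (0.782) and BAI3 (0.737), IGFBP6 with PRKCH (0.758) and MAP7D3 (0.73), IGFBP3 with PTPRF (0.744) and PUS7 (0.736), and IGFBP2 with SAMD10 (0.721) and LRWD1 (0.706). Each of these members had few reads in at least 1 line, where counting error alone moves log2 values widely. In DU145-DR, IGFBP7 held at most 21 reads per library and CD74 at most 6.9 normalised reads. The part of counting error in these r values was not tested. Although it was the closest gene to IGFBP7 in both measures, CD74 had a log2 fold change of -0.10 with knockdown in ARCaPM-DR (SE 0.26, adjusted p = 0.816), beside 0.61 for IGFBP7. QPCT, a glutaminyl cyclase, had 0.53 (SE 0.14, adjusted p = 0.0242). IGFBP1 and IGFBP5 averaged under 50 and were left out.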

How the data were processed

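RNA of 27 libraries, prepared with the RNeasy Mini kit and standard Illumina protocols per the labels' protocols, was aligned to hg19 with TopHat2 2.0.9, and Cufflinks 1.3.0 is also named, per the submitters' processing notes. The authors deposited 1 table of normalised read counts (a signal that is never negative), and no source used here names the counting or scaling program or the strand setting. Each value above 0 is a read count divided by 1 size factor per library: 99.954% of 433407 values were whole reads within 0.005 reads, and 199 values in 58 genes were not. Depth ran from 3.44 M to 19.4 M reads, so that 1 read equalled 0.64 to 3.89 normalised reads. Groups came from the sample titles.

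Log2(value + 1) was fitted per line (9 libraries) with limma 3.58.1 in R 4.3.3, with trend, after keeping genes at 10 normalised reads or more in at least 3 libraries. The contrast was the mean of both hairpins minus Control, and differences between lines came from 1 fit of all 27 libraries. All p-values are two-sided and adjusted by Benjamini-Hochberg over all genes tested, with a threshold of 0.05. Fold changes are on the log2(value + 1) scale, which understates those of low genes. Intervals are 95% limits. Recovered reads were tested with edgeR 4.0.16 and DESeq2 1.42.0 as alternatives, and the fits were tested on simulated data. Floors of 3 reads cover counting error only.

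The members and gene lists were chosen with earlier results of these data known. Named were all members, GATA2, up to 8 IGF axis and 5 fold genes ranked by adjusted p, and the 2 genes most like each member. Replicate numbers paired libraries, as judged from the data, in DU145-DR and 22Rv1-DR, where every same-number pair's deviations correlated above 0.1 (lowest 0.28 and 0.21). ARCaPM-DR missed that mark (lowest 0.06), although its median same-number r was 0.58, against -0.26 for other numbers. Sequences are from GENCODE v29 and RefSeq, and no coordinates of the authors' build are given.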

Additional observations from a re-analysis of the deposited data

Results flagged for a closer look

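The knockdown effect on IGFBP1 differed between the 3 lines in the F test over all 27 libraries (limma adjusted p = 0.0354). IGFBP1 averaged 12.6 ± 3.57 normalised reads in the 22Rv1-DR knockdown libraries and 29.2 ± 3.09 in Control (SD, n = 6 and 3), with all 6 knockdown libraries lower. ARCaPM-DR and DU145-DR held 1 and 0 IGFBP1 reads in all, so the gene was tested only because of its 22Rv1-DR level. The call was lost with a pseudocount of 0.1 (adjusted p = 0.328), with edgeR (1) and without any 1 of 11 libraries (up to 0.0714).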

How the results depend on the processing

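Of 1747 alternative values over 57 results on the members, 1698 kept direction and call, 31 lost the call, 8 gained it and 10 reversed or fell to 0, each of the 10 on leaving out 1 library. In DU145-DR the count of members called, 1 in the report, was 0 with a filter of 50, under which IGFBP5 was not tested, and 2 with the replicate block. In 22Rv1-DR it was 1 in place of 0 with 1 fit of all 27 libraries. In ARCaPM-DR it was 0 in place of 2 with that fit and 1 to 2 with 1 library left out. It was 4 there with the replicate block (IGFBP2 adjusted p = 0.011, IGFBP4 2.34e-05). Replicate numbers missed the mark for pairing in that line, but 7 of its 9 libraries correlated best with their own number. The replicate block changed no other member's knockdown call within a line, but it called the IGFBP4 control difference of ARCaPM-DR from DU145-DR (adjusted p = 0.015), the IGFBP4 effect difference of the same lines (0.0317) and the IGFBP1 effect difference of 22Rv1-DR from DU145-DR (0.0295). The count for the knockdown effect between lines, 1 in the report, was 0 with a pseudocount of 0.1, with a filter of 50 (IGFBP1 not tested) and with edgeR, and 0 to 1 with 1 library left out. The cause of the other changes was not tested.

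With 1 library left out, directions turned in these ranges of log2 values: -0.28 to 0.05 for IGFBP4 and -0.04 to 0.39 for IGFBP6 knockdown in DU145-DR, and -0.04 to 0.34 for IGFBP5 knockdown and -0.68 to 0.06 for the IGFBP5 hairpin difference in 22Rv1-DR. The difference in knockdown effect ran from -0.85 to 0.64 for IGFBP6 between 22Rv1-DR and DU145-DR. For IGFBP1 between ARCaPM-DR and DU145-DR it ran from 0 to 0.25. The 0 arose without ARCaPM-DR shGATA2a replicate 2, which held the only IGFBP1 read of these lines, so no direction turned there. Over all genes the replicate block raised the calls to 5885 in ARCaPM-DR, 166 in 22Rv1-DR and 5184 in DU145-DR, against 2418, 55 and 2231 without it. In 22Rv1-DR DESeq2 called 185 genes, 1 fit of all 27 libraries 224, and the fit without genes holding values that were not whole 1. That joint fit called 650 genes in DU145-DR. Depth limits IGFBP1 and IGFBP5, and members under 10 normalised reads in a line were not tested there.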
